A study of Mus musculus with 16 samples.

Results

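The genes that encode the proteasome, its regulators and its dedicated assembly factors were followed in islet cells. They were taken as the genes whose symbol starts with Psma to Psmg followed by a digit, which matched 49 of the 25105 genes in the table. Of these, 48 encode proteasome proteins and Psmc3ip, a meiotic recombination factor, shares only the name. The 48 comprise 7 genes of the alpha ring, 4 non-catalytic and 3 constitutive catalytic beta subunits, 3 immunoproteasome catalytic subunits, 2 tissue-restricted 20S subunits (Psma8 of testis and Psmb11 of thymic epithelium), 6 ATPases and 11 non-ATPase subunits of the 19S regulatory particle, 3 assembly chaperones of the 19S particle, 4 assembly chaperones of the 20S core, 4 activators and 1 inhibitor.

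The libraries came from dispersed primary islet cells of Grp78 flox/flox mice, kept in medium with 15 mM glucose for 72 h. Ad-LacZ received an adenovirus for LacZ with DMSO vehicle, Ad-Cre an adenovirus for Cre recombinase with DMSO, and Ad-LacZ+JNKi and Ad-Cre+JNKi the same viruses with the pan-JNK inhibitor JNK-IN-8, present from the start. Each of the 4 groups held 4 libraries, 1 from each of the islet preparations F1, M1, M2 and F2, so every group carried the floxed allele and every comparison can be read within a preparation. Both viruses use the CMV promoter, which is not limited to beta cells, and the donor mice were adults of both sexes. Each preparation was a pool of 2 animals by the labels, whereas the methods of the study count 4 mice in all.

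The proteasome degrades proteins tagged with ubiquitin. Its barrel-shaped 20S core stacks alpha rings, which gate entry, on beta rings, in which Psmb5, Psmb6 and Psmb7 carry the chymotrypsin-like, caspase-like and trypsin-like sites. Cells exposed to interferon replace these with Psmb8, Psmb9 and Psmb10, which gives the immunoproteasome. The 19S particle recognises, deubiquitinates and unfolds substrates with a ring of ATPases, the Psmc genes, and a lid and base of Psmd subunits. Psme1 and Psme2 form the PA28 activator, Psme3 the nuclear PA28 gamma, and Psme4 the large PA200 cap. In beta cells, which make much secretory protein, misfolded proinsulin is returned from the endoplasmic reticulum for degradation by the proteasome.

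RPKM, reads per kilobase of gene length scaled to library depth, divides by gene length and was therefore also used to compare genes with each other. The gene lengths behind it are not given, so levels of different genes hold only for those lengths. Depth was estimated at 7.72 to 25.5 M reads per library. Hspa5, which encodes GRP78, ranged over 395 to 483 RPKM in Ad-LacZ and over 1107 to 1598 RPKM in Ad-Cre. Without the inhibitor its log2 fold change was 1.51 (standard error (SE) 0.18, adjusted p = 0.00224, limma), which goes against the label of a knockdown. The study itself reports lower Grp78, with higher Grp94 and Calr, by qPCR in parallel aliquots, data that are not analysed here. The values are per gene and do not show the floxed exons on their own, so every direction below is that of the libraries labelled Ad-Cre. All 10 beta cell markers were present, at a summed 33368 to 85014 RPKM. In bulk RNA, fewer cells of a type and less RNA per cell cannot be told apart. The library of M2 in Ad-Cre+JNKi had 27225 RPKM of summed alpha cell markers, against 13263 to 23278 RPKM in the other Ad-Cre+JNKi libraries, and the library of F2 in Ad-Cre+JNKi carries another prefix and lane number in its column name than the other 15 and had the lowest depth.

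Promoter sequences were matched for 40 of the 48 genes (RefSeq, GRCm38.p6, 250 bases before the transcription start). The transcription factor NFE2L1 raises proteasome genes when the proteasome is short. The antioxidant response element core TGACNNNGC, searched on both strands, is the kind of letters that NFE2L1 and NFE2L2 can bind. It was found in 5 of 40 windows (12.5%), Psmb5, Psmb6, Psmd9, Psmc6 and Psmd12, and in 11.5% of the windows of all 27025 genes. The windows of Psmb5, Psmb6, Psmc6 and Psmd12 are shown because the first 2 genes rose with Ad-Cre, as described below, and the last 2 did not pass the test in any comparison. The window of Psmd9 lies 58777 bases downstream of the gene start in GENCODE and is not shown. Capitals mark the match, each sequence reads 5′ to 3′ on the strand of its gene, and bases that GENCODE M21 annotates as an exon were left off the 3′ end.
Psmb5 (chr14:54618023-54618245, minus strand, upstream of the first exon): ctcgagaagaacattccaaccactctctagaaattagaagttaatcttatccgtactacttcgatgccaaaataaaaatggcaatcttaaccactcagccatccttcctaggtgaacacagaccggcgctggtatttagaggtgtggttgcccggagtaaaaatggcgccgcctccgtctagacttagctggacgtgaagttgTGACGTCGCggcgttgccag
Psmb6 (chr11:70525107-70525356, plus strand, upstream of the first exon): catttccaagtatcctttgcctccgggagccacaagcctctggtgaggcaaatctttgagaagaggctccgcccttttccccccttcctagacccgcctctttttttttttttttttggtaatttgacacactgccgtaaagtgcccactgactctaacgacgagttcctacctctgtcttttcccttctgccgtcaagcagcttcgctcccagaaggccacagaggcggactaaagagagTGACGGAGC
Psmc6 (chr14:45329574-45329787, plus strand, upstream of the first exon): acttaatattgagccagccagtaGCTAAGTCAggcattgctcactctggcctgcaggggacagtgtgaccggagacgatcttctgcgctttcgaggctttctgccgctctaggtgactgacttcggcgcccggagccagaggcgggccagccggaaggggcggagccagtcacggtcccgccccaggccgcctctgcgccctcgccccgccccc
Psmd12 (chr11:107479278-107479483, plus strand, upstream of the first exon): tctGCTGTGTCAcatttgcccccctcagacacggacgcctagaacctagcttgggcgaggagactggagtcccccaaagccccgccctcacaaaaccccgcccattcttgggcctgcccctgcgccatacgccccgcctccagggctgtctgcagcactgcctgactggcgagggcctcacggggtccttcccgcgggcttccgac

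Counted from the RefSeq start, the match lay at -47 to -39 in Psmb5 and at -9 to -1 in Psmb6, on the strand of the gene, and at -227 to -219 in Psmc6 and -247 to -239 in Psmd12, on the opposite strand. In Psmb5 it overlaps a match to TGACGT. Other motifs were searched in the same windows on both strands. The interferon-stimulated response element core was in 3 of 40 windows (7.5%), those of Psmb3, Psmd4 and Psmd9, against 3.46% of all genes. The GAS motif TTCNNNGAA was in the windows of Psmb8 and Psmg1 (5%, against 8.13% of all genes), the cAMP response motif TGACGT in 4 windows (10% against 7.29%), and the CCAAT box in 14 windows (35% against 37.5%), and the endoplasmic reticulum stress response element ERSE in none (against 0.130% of all genes). The RefSeq and GENCODE starts lay more than 1000 bases apart for 6 of the 40 genes.

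In the control libraries, Ad-LacZ, the RPKM values for genes of a complex with fixed stoichiometry were far from equal. Spans and orders between genes depend on the gene lengths used, which are not given. Across the 14 constitutive 20S core genes the mean ran from 8.51 RPKM for Psma3 to 104 RPKM for Psmb1, a 12.2-fold span, and across the 17 genes of the 19S particle from 9.11 RPKM for Psmd11 to 79.1 RPKM for Psmc1. Psmb1 was the most abundant, at 102 to 106 RPKM, and its range did not overlap that of the next gene, Psmc1. Below it the ranges of most neighbours in the order overlapped, and the only other breaks among genes above 1 RPKM lay between Psma5 and Psme1, between Psme2 and Psmb8, between Psmb8 and Psmg3 and after Psmd9.

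The constitutive catalytic genes were at 48.4 ± 1.90 RPKM for Psmb6, 44.7 ± 6.13 RPKM for Psmb5 and 27.8 ± 0.633 RPKM for Psmb7 (SD, n = 4). Their immunoproteasome counterparts were lower, at 8.29 ± 2.17 RPKM for Psmb10, 3.64 ± 0.414 RPKM for Psmb8 and 0.734 ± 0.149 RPKM for Psmb9. Psmb8 thus stood at 8.22 ± 1.04% of Psmb5, Psmb9 at 1.52 ± 0.31% of Psmb6, and Psmb10 at 29.7 ± 7.02% of Psmb7. Percentages and orders between genes depend on the gene lengths used. In GENCODE M21 the exons of Psmb7 cover 3421 bases and its longest coding transcript 1160 bases, against 1705 and 1311 bases for Psmb10. For Psmb8 these were 3381 and 1628 bases, and for Psmb5 899 bases by both. A change of a ratio between groups does not depend on them. The activators were ordered Psme4 (36.3 ± 1.09 RPKM), Psme3 (33.4 ± 2.40 RPKM), Psme1 (15.8 ± 1.40 RPKM) and Psme2 (5.68 ± 0.357 RPKM), so that the partners of PA28 were themselves unequal. Psma8 did not exceed 0.349 RPKM and Psmb11 did not exceed 0.0305 RPKM in any of the 16 libraries.

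Psmb8 and Psmb9 lie 9956 bases apart on chromosome 17 (GRCm38), Psme1 and Psme2 5911 bases apart on chromosome 14, and Psmb5 and Psmb11 3410 bases apart on chromosome 14. Psmb9 overlaps Tap1 on the opposite strand at 1 end and Psme2 has a near-identical copy, Psme2b. The strand setting of the library kit and the handling of shared reads are not given in the sources used here, so both values may hold reads of the other gene.

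The first comparison asked how the libraries labelled Ad-Cre differed from Ad-LacZ without the inhibitor. Proteasome genes did not move as one block: the catalytic genes Psmb5, Psmb6, Psmb8 and Psmb10 and 3 of 17 genes of the 19S particle were higher, none of the alpha ring passed the test, and the PA200 gene Psme4 was lower. Of the 49 genes, 45 passed the filter on low values (more than 1 RPKM in 4 or more of 8 libraries), and all named here except Psmb9, Psma8, Psmb11 and Psmc3ip are among them. At an adjusted p under 0.05, 9 of the 45 were higher and 1 was lower, where 7.29% of the 11590 genes tested were higher and 9.58% were lower. The median log2 fold change was 0.14 over the 45 and -0.01 over all genes tested, and 30 of the 45 lay above 0, against 48.8% of all genes.

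The immunoproteasome gene Psmb8 had the largest rise. It was at 3.39, 3.51, 4.26 and 3.42 RPKM in F1, M1, M2 and F2 of Ad-LacZ and at 6.20, 5.55, 8.38 and 7.22 RPKM in those of Ad-Cre. The groups did not overlap, and its log2 fold change was 0.74 (SE 0.09, adjusted p = 0.00224, limma). Psmb10 was at 7.40, 6.94, 11.5 and 7.29 RPKM in Ad-LacZ and at 14.4, 11.6, 14.8 and 14.0 RPKM in Ad-Cre. Its highest Ad-LacZ library, M2, lay just under the lowest Ad-Cre library, M1, and the log2 fold change was 0.68 (SE 0.13, adjusted p = 0.0105). Psmb10 lost its call without preparation F1, M1 or F2, at log2 fold changes of 0.60, 0.68 and 0.65. Psmb9 was at 0.697, 0.818, 0.879 and 0.541 RPKM in Ad-LacZ and at 0.824, 0.951, 1.32 and 0.966 RPKM in Ad-Cre, higher in each preparation, with overlapping groups and too low to be tested.

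**Figure D1:**
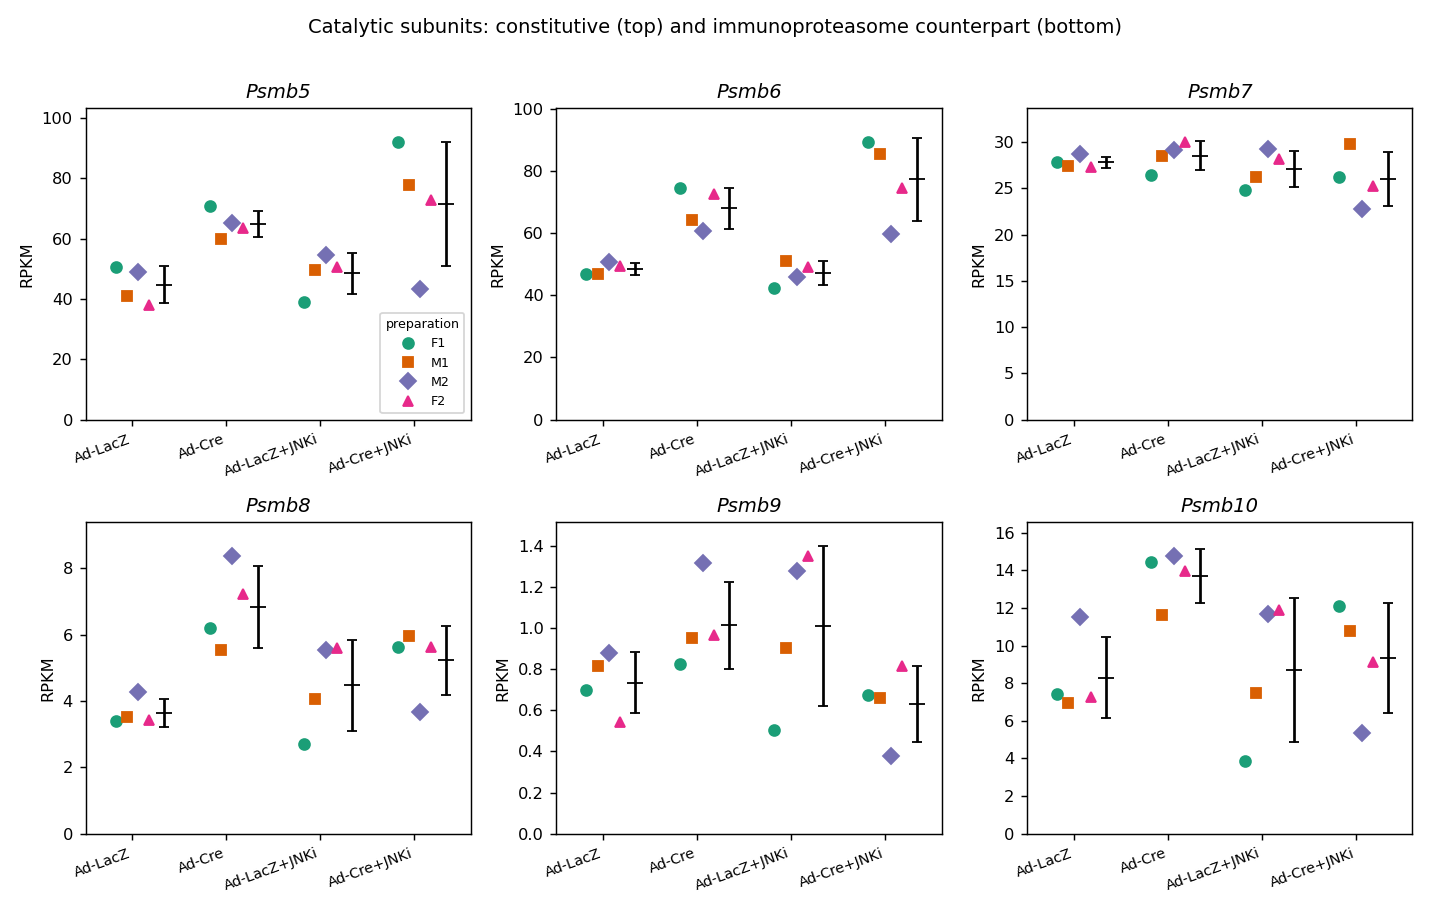
RPKM (y axis, from 0, a scale of its own in each panel) of the constitutive catalytic genes Psmb5, Psmb6 and Psmb7 (top) and their immunoproteasome counterparts Psmb8, Psmb9 and Psmb10 (bottom) in the 4 groups, with 1 point per library coloured by preparation and the black bar giving mean ± SD (n = 4). Psmb5, Psmb6, Psmb8 and Psmb10 of Ad-Cre lie above Ad-LacZ without overlap, Psmb7 stays between 22.8 and 30.05 RPKM in every library, and the M2 library of Ad-Cre+JNKi is the lowest of its group for each of the 6 genes.

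Of the constitutive catalytic genes, Psmb5 was at 50.7, 41.0, 49.1 and 38.1 RPKM in Ad-LacZ and at 70.7, 60.0, 65.2 and 63.5 RPKM in Ad-Cre, a log2 fold change of 0.53 (SE 0.14, adjusted p = 0.0328). Psmb6 was at 46.8, 46.8, 50.6 and 49.4 RPKM against 74.5, 64.2, 60.9 and 72.6 RPKM, a log2 fold change of 0.47 (SE 0.13, adjusted p = 0.0424). Both were higher in every Ad-Cre library than in any Ad-LacZ library. Psmb7, the third catalytic gene, was at 27.9, 27.4, 28.7 and 27.3 RPKM against 26.5, 28.5, 29.2 and 30.05 RPKM and did not pass the test (log2 fold change 0.03, SE 0.10, adjusted p = 0.858), and its sign turned with quantile normalization and with the GC correction described below.

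Set against its partner, Psmb10 was at 25.4 to 40.2% of Psmb7 in Ad-LacZ and at 40.8 to 54.6% in Ad-Cre, with no overlap. Psmb8 was at 6.68 to 8.96% of Psmb5 in Ad-LacZ and at 8.76 to 12.9% in Ad-Cre, and these ranges overlapped slightly. Psmb9 was at 1.52% of Psmb6 in both groups on average. The balance between immunoproteasome and constitutive transcripts thus moved for 1 of the 3 pairs beyond the range of the libraries, and Psmb5 and Psmb6 rose as well. GC content was 56.5% for Psmb10 and 48.7% for Psmb7. It was closer in the other pairs, at 55.8% for Psmb8 and 56.6% for Psmb5, and at 55.3% for Psmb9 and 55.8% for Psmb6. The part of GC content in these ratios was not tested.

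Markers of other cells moved in the same libraries. The summed level of 12 macrophage markers was 91.8 to 104 RPKM in Ad-LacZ and 103, 122, 274 and 241 RPKM in F1, M1, M2 and F2 of Ad-Cre, and 4 of the 11 tested were higher (adjusted p under 0.05). None of the 12 was at 0 throughout. By preparation, the macrophage sums of Ad-LacZ were 97.7, 104, 91.8 and 104 RPKM in F1, M1, M2 and F2. Of 9 lymphocyte markers 1 passed the filter, and their sum was 0.481 to 4.53 RPKM. The sum of 8 stellate and fibroblast markers reached 686 RPKM in M2 of Ad-Cre, against 22.1 to 179 RPKM in its other libraries, with 0 of 4 tested called. Summed beta cell markers were 52128 to 85014 RPKM in Ad-LacZ and 33563 to 84543 RPKM in Ad-Cre, with 2 of 10 lower. The part of these cells in the result was not tested.

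Among genes of antigen loading and its interferon regulators, 3 of 9 tested were higher and 1 was lower, where 7.29% and 9.58% of all genes were. Tap1, the peptide transporter next to Psmb9, was at 1.98, 1.99, 2.24 and 1.24 RPKM in Ad-LacZ and at 3.15, 2.52, 4.84 and 4.23 RPKM in Ad-Cre (log2 fold change 0.69, SE 0.15, adjusted p = 0.0179). The class I heavy chains H2-K1 and H2-D1 were higher by 0.58 and 0.59 on the log2 scale (adjusted p = 0.0174 and 0.0370). Erap1, a peptide-trimming aminopeptidase, was lower (log2 fold change -0.52, adjusted p = 0.0151). With the GC and length correction described below, H2-D1 and Erap1 were not called (adjusted p = 0.0600 and 0.155, limma). With the correction and a term for the preparation they were (0.0151 and 0.0270). Irf1, a transcription factor of the interferon response, had a log2 fold change of 0.02 (SE 0.12) and did not pass.

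The alpha ring moved least. None of its 7 genes passed the test, with a median log2 fold change of 0.04 and a range of -0.17 for Psma2 to 0.33 for Psma7 (adjusted p = 0.107 for Psma7). Among the non-catalytic beta genes, Psmb4 was at 69.7, 54.6, 63.7 and 39.7 RPKM in Ad-LacZ and at 101, 81.9, 79.7 and 82.0 RPKM in Ad-Cre. Its log2 fold change of 0.61 was among the largest, but the Ad-LacZ libraries were widely spread and it did not pass (SE 0.20, adjusted p = 0.0686). Psmb3 was at 16.4, 16.1, 14.6 and 12.6 RPKM against 27.2, 19.6, 21.5 and 21.2 RPKM, without overlap, and lay at the threshold (log2 fold change 0.55, SE 0.16, adjusted p = 0.0503). Psmb2 pointed the other way (72.3, 70.1, 73.3 and 98.5 RPKM against 68.9, 59.4, 66.6 and 64.2 RPKM, log2 fold change -0.27, SE 0.15, adjusted p = 0.251), with overlapping groups.

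In the 19S particle, 3 of 17 genes were higher and none was lower, with a median log2 fold change of 0.25. Psmd3, a lid subunit, was at 23.3, 24.6, 25.2 and 20.8 RPKM in Ad-LacZ and at 38.0, 34.6, 31.3 and 33.4 RPKM in Ad-Cre (log2 fold change 0.52, SE 0.14, adjusted p = 0.0348). Psmd8, another lid subunit, and Psmd4, a ubiquitin receptor, rose by 0.43 and 0.41 (adjusted p = 0.0250 and 0.0466). Within the same particle, Psmd1, the scaffold of the base, was at 35.5, 37.5, 34.6 and 37.0 RPKM in Ad-LacZ and at 27.0, 30.2, 27.6 and 27.4 RPKM in Ad-Cre. Its groups did not overlap as RPKM but did after scaling, and it did not pass (log2 fold change -0.36, SE 0.13, adjusted p = 0.0790). Psmd14, the deubiquitinase of the lid, had a log2 fold change of -0.27 (SE 0.10, adjusted p = 0.0999). None of the 6 ATPases passed, with log2 fold changes of -0.24 for Psmc6 to 0.40 for Psmc5.

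Among assembly factors, Psmg2 of the 20S core rose from 6.79 ± 0.337 to 9.25 ± 0.811 RPKM (log2 fold change 0.39, SE 0.08, adjusted p = 0.0162) and Psmd9 of the 19S base from 2.40 ± 0.245 to 3.46 ± 0.374 RPKM (log2 fold change 0.39, SE 0.09, adjusted p = 0.0232; SD, n = 4). The other 5 chaperones had log2 fold changes of -0.04 to 0.18 and did not pass.

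The activators differed from each other. Psme4 was at 37.4, 35.2, 37.0 and 35.5 RPKM in Ad-LacZ and at 18.5, 24.3, 26.1 and 24.7 RPKM in Ad-Cre. The groups were far apart and F1 was the lowest library (log2 fold change -0.63, SE 0.11, adjusted p = 0.00815). Without preparation F1 the log2 fold change was -0.53 and without F2 -0.64, and in both cases the call was lost. Psme2 was at 6.14, 5.27, 5.64 and 5.66 RPKM against 9.97, 6.97, 8.19 and 7.70 RPKM (log2 fold change 0.45, SE 0.14, adjusted p = 0.0534). Its partner Psme1 was at 14.4, 15.0, 16.2 and 17.5 RPKM against 15.9, 13.7, 15.9 and 13.0 RPKM (log2 fold change -0.11, SE 0.12, adjusted p = 0.571). Psme2 was therefore at 32.3 to 42.7% of Psme1 in Ad-LacZ and at 50.7 to 62.7% in Ad-Cre, with no overlap. Psme3 and the inhibitor Psmf1 had log2 fold changes of -0.05 and -0.09 and did not pass.

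**Figure D2:**
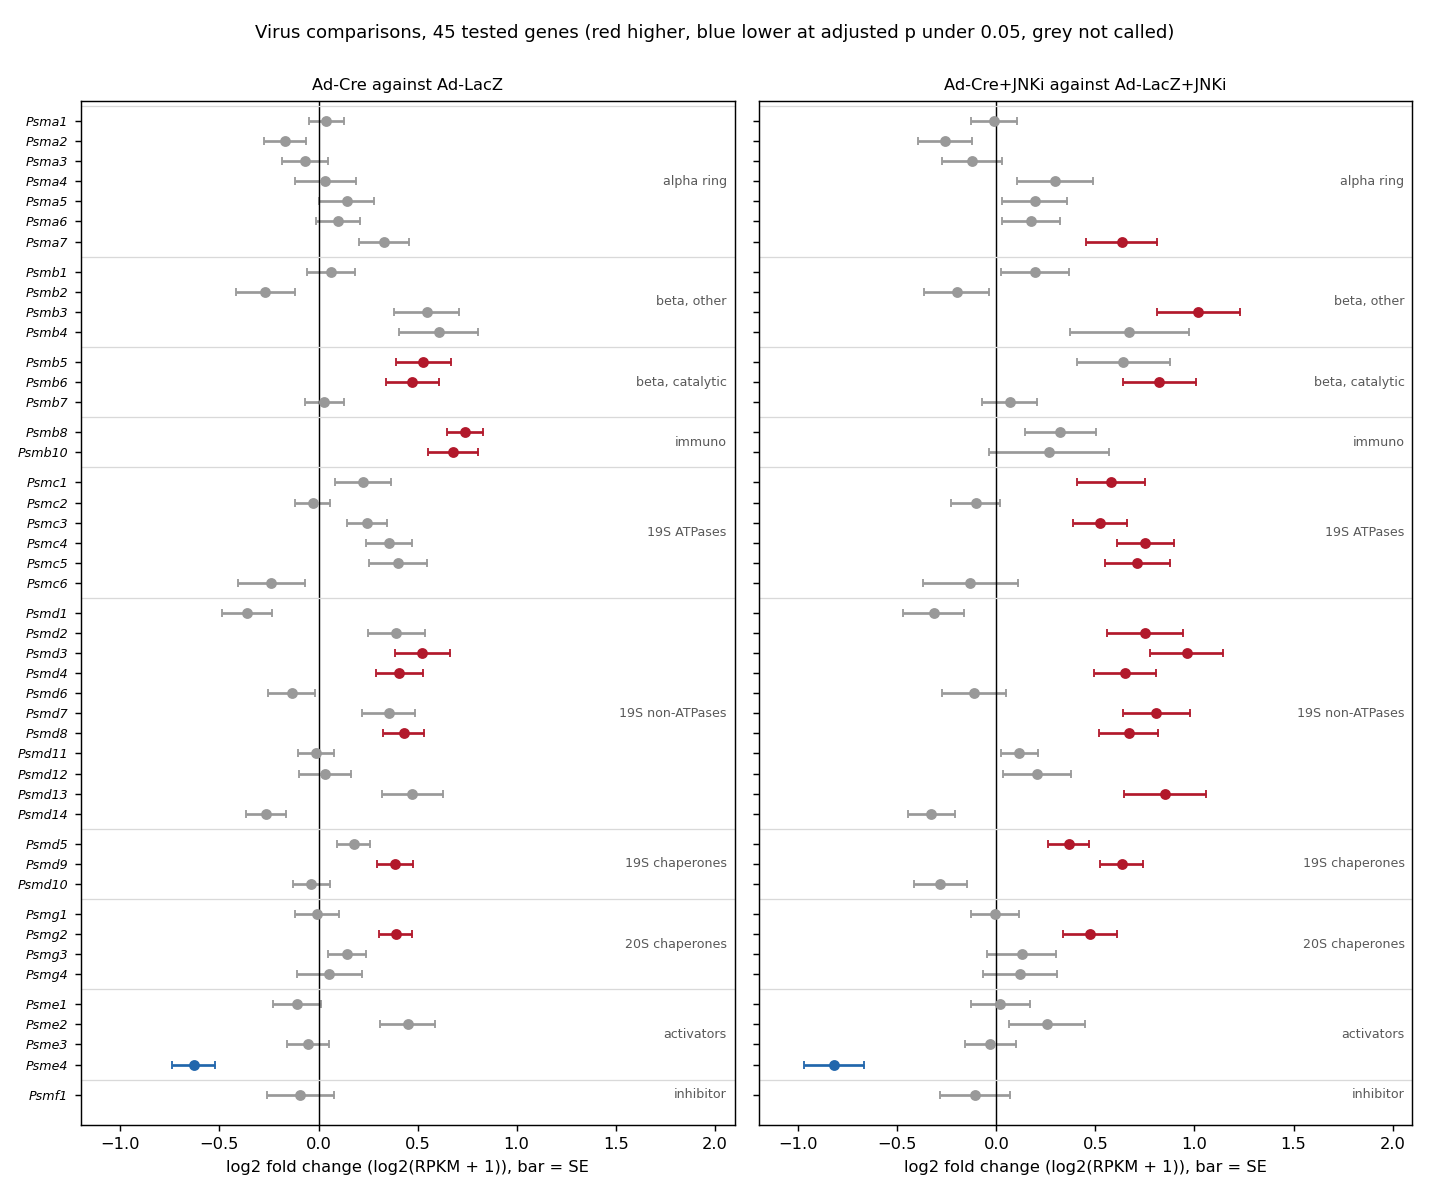
Log2 fold change (x axis, from log2(RPKM + 1), bars give the SE) of the 45 tested genes grouped by role, for Ad-Cre against Ad-LacZ (left) and Ad-Cre+JNKi against Ad-LacZ+JNKi (right), with red for higher, blue for lower and grey for not called at an adjusted p under 0.05. On the left 9 genes are red, Psmb8 (0.74) and Psmb10 (0.68) among them, and on the right 16 are red, led by Psmb3 (1.02) and Psmd3 (0.96), while Psme4 is blue on both sides.

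These counts moved with the fit. Fitted with a term for the preparation, as a block, 18 of 45 were higher and 3 lower, where 15.7% and 18.7% of all genes were. The genes gained were Psma7, Psmb3, Psmb4, Psmc4, Psmc5, Psmd2, Psmd7, Psmd13 and Psme2 upward and Psmd1 and Psmd14 downward, and none of the 10 was lost. Leaving out preparation F1, M1 or F2 left 1 higher and leaving out M2 left 4. Without the F2 library of Ad-LacZ alone, 3 were higher. Shares over all genes were not worked out for these omissions. The counts therefore do not show whether proteasome genes lost more calls than others. Scaled by TMM over the filtered genes, 16 were higher and 2 lower, where 8.98% and 10.3% of all genes were. By the criteria of the study, an unadjusted p under 0.05 with a fold change above 1.5, 3 were higher and 1 lower (5% and 5.27% of all genes). At an unadjusted p under 0.05 alone 19 were higher and 3 lower (14.3% and 18.6%), and in 13 the groups lay apart upward and in 2 downward (10.7% and 14.2%).

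GC content moved with these differences. Across the 45 genes, log2 fold change and the GC content of the longest coding transcript (37.0 to 58.3%) had a Pearson r of 0.68 and a Spearman rho of 0.71, and across all 11590 genes tested 0.34 and 0.38. Genes share libraries and are not independent. Of the 9 genes that rose, 8 were among the 22 of highest GC content, with a median log2 fold change of 0.40 there and 0.01 among the 22 of lowest. Psme4 had 43.9%. Within single libraries, the correlation over all genes between GC content and the deviation from the gene mean ran from -0.44 (F1 of Ad-LacZ+JNKi) and -0.39 (F2 of Ad-LacZ) to 0.42 (F1 of Ad-Cre) and 0.45 (F1 of Ad-Cre+JNKi). After a correction for GC content and length, 6 genes were higher and 1 was lower, where 5.55% and 6.49% of all genes were. Psmb8 (log2 fold change 0.57), Psmb10 (0.48), Psmd8, Psmd9 and Psmg2 remained among them and Psmd5 was added, whereas Psmb5 (0.28), Psmb6, Psmd3 and Psmd4 were not called. Psme4 stayed lower, at -0.42. Over the corrected values r among the 45 genes was 0.36. The part of GC content in the result was not tested further.

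**Figure D3:**
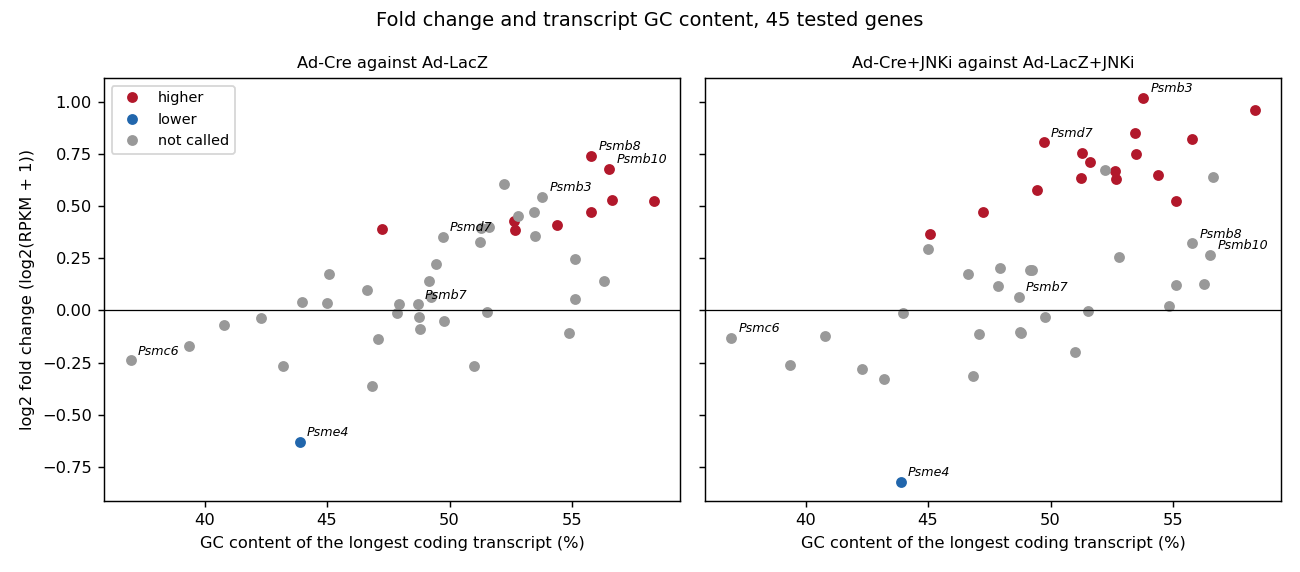
Log2 fold change (y axis) against the GC content of the longest coding transcript in percent (x axis) for the 45 tested genes, without inhibitor (left) and with it (right), coloured by call as in the plot of fold changes. Genes above 50% GC hold most of the red points on both sides, and Psme4 at 43.9% is the single blue one.

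The second comparison repeated the viruses in the presence of the JNK inhibitor. Here 16 of 45 genes were higher and 1 was lower, where 10.1% of the 11598 genes tested were higher and 10.5% lower. The median log2 fold change was 0.21, against -0.03 over all genes tested, and 31 of the 45 lay above 0, against 46.5% of all genes. By the criteria of the study 13 were higher and 1 lower (9.75% and 8.01% of all genes), and in 17 the groups lay apart upward and in 2 downward (11.6% and 14.5%). At an unadjusted p under 0.05, 17 were higher and 2 lower (16.9% and 19.2%). Of the 16, 10 belonged to the 17 genes of the 19S particle, and the other 6 were Psma7, Psmb3 and Psmb6 of the core and the chaperones Psmd5, Psmd9 and Psmg2. Neither of the 2 immunoproteasome genes tested passed with all preparations, although Psmb8 was called without M2, as given below. Both comparisons drew on the same animals but on separate libraries, and Psmb6, Psmd3, Psmd4, Psmd8, Psmd9 and Psmg2 were called higher in both, 66.7% of the first list and 37.5% of the second. Over all genes these shares were 74.9% and 53.8%.

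Psmb3 rose most, from 12.8, 13.5, 16.4 and 15.5 RPKM in F1, M1, M2 and F2 of Ad-LacZ+JNKi to 37.2, 29.4, 18.4 and 29.2 RPKM in Ad-Cre+JNKi (log2 fold change 1.02, SE 0.21, adjusted p = 0.01). Psmd3 was at 17.0, 24.1, 25.4 and 24.95 RPKM against 49.6, 44.1, 29.8 and 43.0 RPKM (log2 fold change 0.96, SE 0.18, adjusted p = 0.00791). In both genes M2 was the lowest Ad-Cre+JNKi library and still above every Ad-LacZ+JNKi library. Psmd13, a lid subunit, was at 20.1, 26.3, 27.4 and 26.8 RPKM against 50.4, 51.1, 28.7 and 41.3 RPKM (log2 fold change 0.85, SE 0.21, adjusted p = 0.0201). Psmb6 was at 42.3, 51.1, 45.8 and 49.1 RPKM against 89.5, 85.5, 59.8 and 74.4 RPKM (log2 fold change 0.82, SE 0.18, adjusted p = 0.0139). Psmd7, also of the lid, was at 53.9, 43.5, 45.4 and 45.3 RPKM against 76.1, 73.6, 81.7 and 70.9 RPKM (log2 fold change 0.81, SE 0.17, adjusted p = 0.0110), and M2 was here the highest library.

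**Figure D4:**
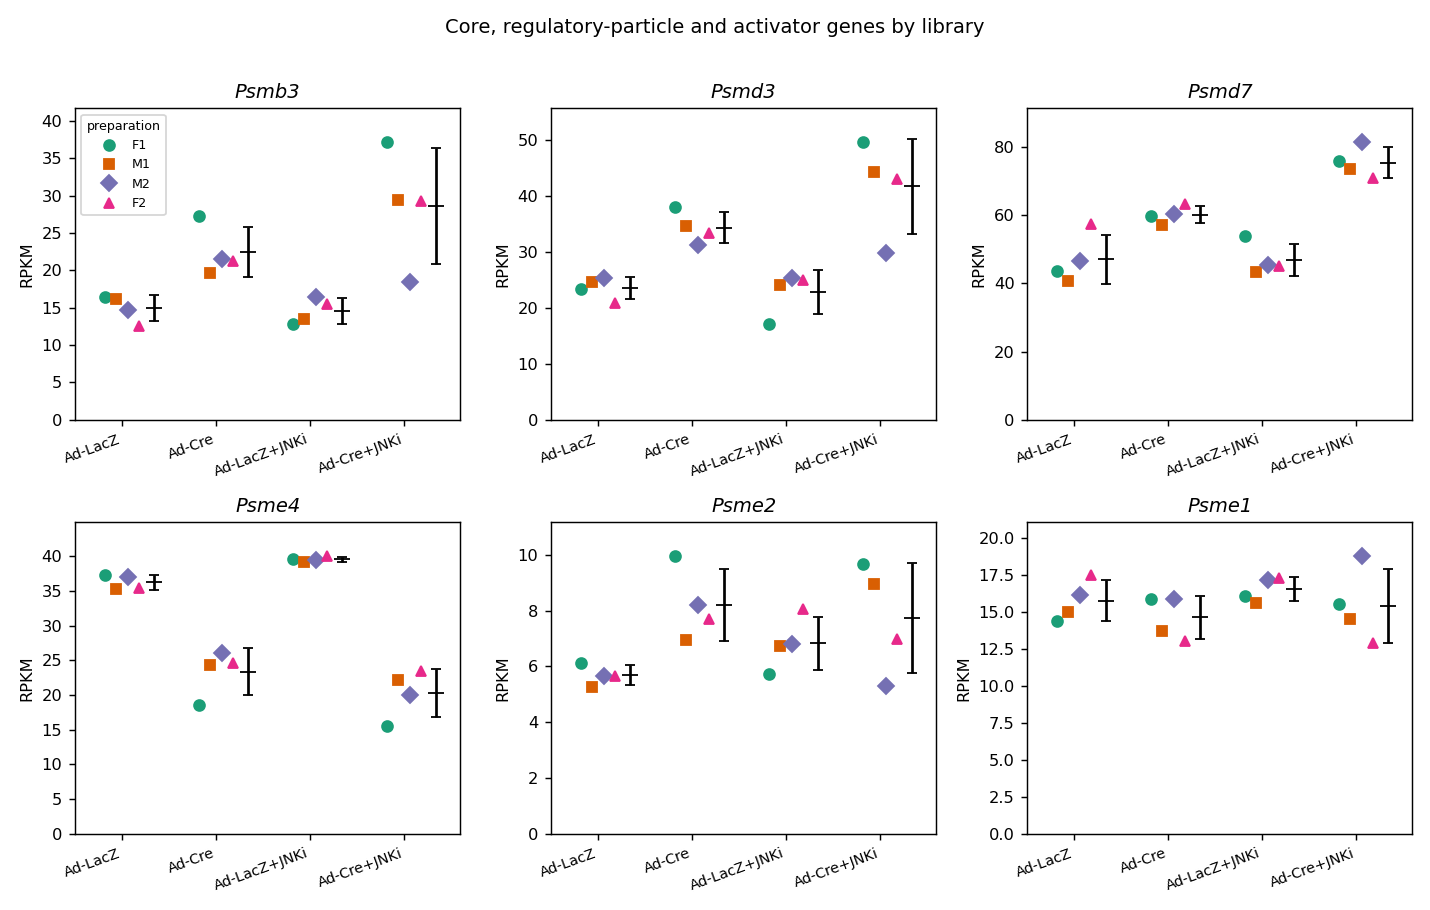
RPKM (y axis, from 0, a scale of its own in each panel) of Psmb3, Psmd3, Psmd7, Psme4, Psme2 and Psme1 in the 4 groups, with 1 point per library coloured by preparation and the black bar giving mean ± SD (n = 4). Psme4 drops in every preparation with Ad-Cre, with and without inhibitor, while Psmb3 and Psmd3 rise and are lowest in M2 within Ad-Cre+JNKi.

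The ATPases Psmc1, Psmc3, Psmc4 and Psmc5 rose by 0.52 to 0.75 on the log2 scale. Psmc2 and Psmc6, of the same ring, had log2 fold changes of -0.10 and -0.13 and did not pass. With the GC and length correction Psmc1 and Psmc3 lost their calls. In the lid and base Psmd2, Psmd3, Psmd4, Psmd7, Psmd8 and Psmd13 rose and Psmd6, Psmd11, Psmd12, Psmd1 and Psmd14 did not pass. Psmd14 was at 21.4, 20.2, 24.6 and 24.6 RPKM against 14.0, 14.4, 18.7 and 18.5 RPKM, without overlap (log2 fold change -0.33, SE 0.12, adjusted p = 0.0794), and Psmd1 was at 36.6, 34.9, 32.6 and 32.2 RPKM against 24.1, 25.4, 25.9 and 23.7 RPKM (log2 fold change -0.32, SE 0.15, adjusted p = 0.172). Psma7 was the 1 alpha gene that rose (log2 fold change 0.63, adjusted p = 0.0362), and the chaperones Psmd9, Psmd5 and Psmg2 rose by 0.63, 0.37 and 0.47. Psma7 and Psmg2 also lost their calls with the GC and length correction.

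Psme4 fell again, from 39.6, 39.1, 39.4 and 40.1 RPKM to 15.5, 22.2, 19.9 and 23.4 RPKM (log2 fold change -0.82, SE 0.15, adjusted p = 0.00640). The Ad-LacZ+JNKi libraries lay within 1 RPKM of each other and the highest Ad-Cre+JNKi library lay far below them. Without preparation M1 or F2 the log2 fold changes were -0.87 and -0.89 and the call was lost. Psme2 (5.72, 6.72, 6.80 and 8.06 RPKM against 9.67, 8.95, 5.31 and 6.97 RPKM) and Psme1 (16.1, 15.6, 17.2 and 17.3 RPKM against 15.6, 14.5, 18.8 and 12.9 RPKM) did not pass, at log2 fold changes of 0.25 and 0.02.

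Among the immunoproteasome genes, Psmb8 was at 2.71, 4.06, 5.52 and 5.60 RPKM in Ad-LacZ+JNKi and at 5.63, 5.95, 3.67 and 5.63 RPKM in Ad-Cre+JNKi, a log2 fold change of 0.32 (SE 0.18, adjusted p = 0.231). Psmb10 was at 3.85, 7.47, 11.7 and 11.9 RPKM against 12.1, 10.8, 5.35 and 9.11 RPKM, a log2 fold change of 0.27 (SE 0.30, adjusted p = 0.564), which became -0.12 without preparation F1. As RPKM, both were higher with Cre in F1 and M1 and lower in M2. In F2 Psmb10 was lower and Psmb8 nearly equal. Without preparation M2, Psmb8 was called higher, at a log2 fold change of 0.52 (adjusted p = 0.0442, limma). Psmb9 was at 0.503, 0.904, 1.28 and 1.35 RPKM against 0.674, 0.658, 0.377 and 0.814 RPKM. Psmb5 was at 38.9, 49.7, 54.6 and 50.8 RPKM against 92.2, 77.8, 43.2 and 72.8 RPKM (log2 fold change 0.64, SE 0.24, adjusted p = 0.0826), and Psmb7 at 24.9, 26.3, 29.2 and 28.2 RPKM against 26.3, 29.8, 22.8 and 25.2 RPKM (log2 fold change 0.07, SE 0.14). The macrophage marker sum was 177 to 373 RPKM in Ad-LacZ+JNKi and 212 to 355 RPKM in Ad-Cre+JNKi, and none of its 11 tested genes passed in this comparison. Of the 10 beta cell markers 4 were lower, with a sum of 36196 to 61605 RPKM against 33368 to 64583 RPKM. The duct marker sums lay apart, at 376 to 909 RPKM in Ad-LacZ+JNKi and 217 to 305 RPKM in Ad-Cre+JNKi, with 1 of 2 tested lower. The delta cell marker sum was 1266 to 3031 RPKM against 2466 to 6831 RPKM, highest in M2, with 0 of 3 called. The part of these cells in the result was not tested.

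**Figure D5:**
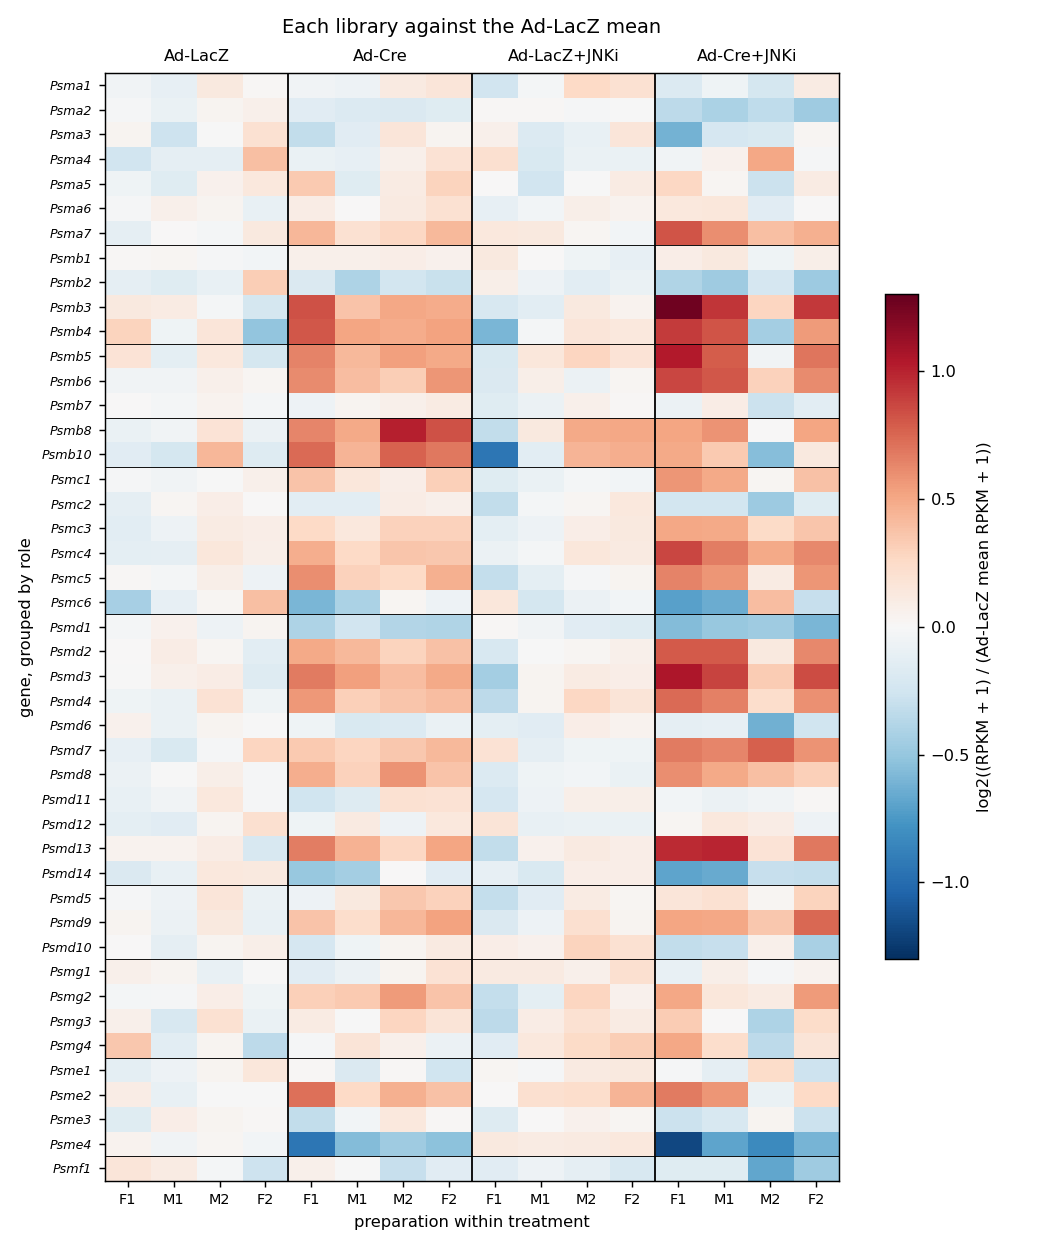
Each tested gene (rows, grouped by role) in each of the 16 libraries (columns), as log2 of RPKM + 1 over the Ad-LacZ mean RPKM + 1, with red above and blue below that mean. Bands of red in Ad-Cre and Ad-Cre+JNKi run through Psmb3 to Psmb6, Psmb8, Psmb10 and many Psmc and Psmd rows, most alpha ring rows are paler, Psme4 is blue in all 8 Ad-Cre and Ad-Cre+JNKi libraries, and the M2 column of Ad-Cre+JNKi is paler than its group in most red rows.

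Single libraries carried much of this spread. Of the 16 genes that rose, 14 had their lowest Ad-Cre+JNKi value in M2 and 14 their lowest Ad-LacZ+JNKi value in F1. Without the M2 library of Ad-Cre+JNKi 19 genes were higher and 3 lower, without the F1 library of Ad-LacZ+JNKi 10 were higher, and without the F2 library of Ad-Cre+JNKi 7 were higher. Leaving out a whole preparation gave 5 higher without F1, 0 without M1, 19 without M2 and 0 without F2. Shares over all genes were not worked out for these omissions either, so it is not known whether other genes changed as much. Across the 45 genes the correlation with GC content was r = 0.63 (rho 0.65), and 12 of the 16 that rose were among the 22 of highest GC content. With the GC and length correction 12 were higher, all of them among the 16, and 2 were lower, Psme4 and Psmd14, where 10.1% and 9.54% of all genes were. Psma7, Psmc1, Psmc3 and Psmg2 lost their calls with it. With the preparation as a block 14 of the 16 stayed higher, all but Psmd5 and Psmg2, and 1 was lower (12.7% and 12.1%). As deposited, without scaling, the median of all genes was at -0.14 in this comparison and in that of the inhibitor in Ad-Cre. In this comparison 14 proteasome genes were then higher and 6 lower, and the shares over all genes are not given here.

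The third comparison asked what the inhibitor changed in the libraries labelled Ad-Cre. The 46th gene tested here and in the interaction is Psmc3ip, which is no proteasome gene. None of the 46 was called with limma at an adjusted p under 0.05, where 0.00869% of the 11503 genes tested were higher and 0.00869% lower, and 4 of 46 were higher at an unadjusted p under 0.05 (5.61% of all genes) and 0 lower (2.43%). With a fold change above 1.2 added, the criterion of the study for the inhibitor, these counts were 4 and 0 (5.49% and 2.32%), and 36 of the 46, Psmc3ip among them, lay above 0, against 48.7% of all genes. Psmd7 was at 59.8, 57.3, 60.4 and 63.5 RPKM in Ad-Cre and at 76.1, 73.6, 81.7 and 70.9 RPKM in Ad-Cre+JNKi. It was the 1 gene whose groups did not overlap (3.55% of all genes were higher and 2.27% lower without overlap), with a log2 fold change of 0.48 (SE 0.14, adjusted p = 0.365). Psmc4 went from 56.0, 48.1, 51.8 and 51.3 RPKM to 74.2, 64.3, 56.9 and 62.6 RPKM (log2 fold change 0.47, SE 0.17, adjusted p = 0.494). Psmb3, Psmd3 and Psma7 followed at log2 fold changes of 0.46, 0.41 and 0.40. Psma7 was at 40.9, 34.6, 36.3 and 40.6 RPKM in Ad-Cre and at 53.6, 46.1, 39.5 and 41.8 RPKM in Ad-Cre+JNKi, with overlap, and the other two are given above. With a block for the preparation, limma called Psmc4, Psmd3, Psmd7 and Psma7 higher (adjusted p = 0.0212, 0.0325, 0.0326 and 0.0426) and none lower, where 4.66% and 2.1% of all genes were. Psmb10 and Psmb8 had the lowest log2 fold changes, at -0.40 (SE 0.24, adjusted p = 0.755) and -0.20 (SE 0.16, adjusted p = 0.848), with overlapping groups. Psmf1 came next, at 12.7, 12.0, 9.596 and 10.8 RPKM against 10.7, 10.7, 7.18 and 8.50 RPKM (log2 fold change -0.12). Psmb10 stood at 40.8 to 54.6% of Psmb7 in Ad-Cre and at 23.5 to 46.0% in Ad-Cre+JNKi, which overlap. Psmb9 stood at 1.11 to 2.16% of Psmb6 in Ad-Cre and at 0.630 to 1.09% in Ad-Cre+JNKi, which do not, at levels of Psmb9 near 1 RPKM or below.

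In control cells the inhibitor changed little that could be detected among these genes. None of 45 genes was called in Ad-LacZ+JNKi against Ad-LacZ with limma or in any alternative tried, where 0.146% of the 11657 genes tested were higher and 0.0515% lower. At an unadjusted p under 0.05, 1 was higher and 0 were lower (2.98% and 3.1% of all genes), and 0 remained either way with a fold change above 1.2 added (2.69% and 2.14%). None lay apart without overlap, against 1.94% of all genes upward and 2.57% downward. With the preparation as a block 0.249% and 0.0858% of all genes were called, and with the GC and length correction 0.0772% and 0.0257%. The log2 fold changes ran from -0.13 to 0.22, with 16 of 45 above 0, against 43.8% of all genes. Macrophage marker sums lay apart, at 91.8 to 104 RPKM in Ad-LacZ and 177 to 373 RPKM in Ad-LacZ+JNKi. Duct marker sums did too, at 136 to 274 RPKM against 376 to 909 RPKM. The sums of the other marker lists overlapped. The part of these cells in the result was not tested.

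The 1 gene with an unadjusted p under 0.05 was Psme2 (log2 fold change 0.22, SE 0.10, adjusted p = 0.797, limma). Psmb8 had the next largest, 0.20 (SE 0.13, adjusted p = 0.987), and both are given by library above. The chaperone Psmg4 was at 10.2, 7.00, 7.99 and 5.97 RPKM in Ad-LacZ and at 6.97, 8.66, 9.44 and 9.98 RPKM in Ad-LacZ+JNKi (log2 fold change 0.16). Psmd10, a chaperone of the 19S base, was at 9.05, 8.23, 9.29 and 9.59 RPKM against 9.67, 9.45, 11.3 and 10.5 RPKM (0.16), and Psmg1, of the 20S core, at 11.3, 11.0, 9.93 and 10.7 RPKM against 11.7, 11.7, 11.3 and 12.6 RPKM (0.13). Among the lowest, the inhibitor Psmf1 was at 13.5, 13.0, 11.9 and 9.80 RPKM against 10.8, 11.5, 11.0 and 10.3 RPKM (-0.13). Psmc5 was at 77.6, 74.97, 80.5 and 72.9 RPKM against 61.6, 69.8, 75.6 and 78.3 RPKM (-0.11), and Psmd8 at 36.1, 37.9, 40.2 and 37.7 RPKM against 33.6, 36.6, 37.1 and 35.7 RPKM (-0.09). None of these passed.

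The fourth test asked whether the difference between the viruses itself differed with the inhibitor. None of 46 genes passed the interaction test in limma over the 16 libraries, nor did any of the 12274 genes tested. At an unadjusted p under 0.05 there were 2 members higher, Psmd7 and Psmc4, and 0 lower (1.87% and 1.35% of all genes), and 35 of the 46, Psmc3ip among them, lay above 0, against 51.9% of all genes. The largest positive values on the log2 scale were those of Psmb3 (0.49, SE 0.29), Psmd7 (0.47, SE 0.21), Psmd3 (0.45, SE 0.25), Psmc4 (0.41, SE 0.18) and Psmd13 (0.39, SE 0.28). The most negative were those of Psmb8 (-0.40, SE 0.21), Psmb10 (-0.39, SE 0.37) and Psmd10 (-0.23, SE 0.14), and each of these had an adjusted p of 1. The larger counts with the inhibitor and the missing calls of Psmb8 and Psmb10 there were therefore not shown to differ from the comparison without it.

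Proteins that work with the proteasome but fall outside the name rule moved in both directions. Of 11 partners, 1 was higher and 3 were lower in Ad-Cre against Ad-LacZ, where 7.29% and 9.58% of all genes were, and 3 were higher and 2 lower with the inhibitor, where 10.1% and 10.5% were. With the preparation as a block these counts were 3 and 4 without the inhibitor and 2 and 2 with it. Ecpas, a scaffold that holds the core and the 19S particle together, was at 21.2, 21.2, 21.8 and 18.9 RPKM in Ad-LacZ and at 10.8, 12.9, 13.5 and 12.9 RPKM in Ad-Cre (log2 fold change -0.69, SE 0.10, adjusted p = 0.00410), and with the inhibitor its log2 fold change was -0.81 (adjusted p = 0.00161). Zfand2a was higher in both comparisons, by 0.41 and 0.56, but with the inhibitor it rose in 3 of 4 preparations and lost its call with the block (adjusted p = 0.0845, limma). Pomp, the maturation factor of the core, and Adrm1, a ubiquitin receptor of the base, were higher with the inhibitor (log2 fold change 0.70 and 0.75, adjusted p = 0.0178 and 0.0107, limma). Without it their log2 fold changes were 0.31 and 0.41, which passed with the block (adjusted p = 0.0325 and 0.0304) and not without it (0.150 and 0.0903). Their interaction did not pass (0.41 and 0.35 on the log2 scale, SE 0.22 for both). For the inhibitor in Ad-Cre both were called higher with the block alone (log2 fold change 0.45 and 0.37, adjusted p = 0.0245 and 0.0470). Ube3c, a proteasome-bound ubiquitin ligase, had log2 fold changes of -0.49 without the inhibitor, called with the block alone (adjusted p = 0.00601 against 0.117), and -0.63 with it (adjusted p = 0.0400). The deubiquitinase Uchl5 was lower without the inhibitor (log2 fold change -0.55, adjusted p = 0.0219). With the GC and length correction Adrm1 and Ube3c were not called with the inhibitor (adjusted p = 0.0801 and 0.131, limma). With the correction and the block they were (0.0466 and 0.0233). Without the inhibitor Adrm1 was not called with the correction and the block (adjusted p = 0.325), nor for the inhibitor in Ad-Cre (0.123).

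Of 6 regulators of proteasome genes, 1 was higher in each virus comparison, where 7.29% and 10.1% of all genes were, the transcription factor Foxo4 (6.35 ± 0.830 RPKM in Ad-LacZ and 11.3 ± 1.33 RPKM in Ad-Cre, SD, n = 4, log2 fold change 0.74, adjusted p = 0.00840, and 1.24 with the inhibitor, adjusted p = 0.00264). Nfe2l1 was at 90.5, 93.2, 84.5 and 73.2 RPKM in Ad-LacZ and at 99.7, 109, 101 and 111 RPKM in Ad-Cre, higher in each preparation. It did not pass (log2 fold change 0.30, SE 0.14, adjusted p = 0.180), but was called with the block (adjusted p = 0.04997, limma). With the block and the GC and length correction Nfe2l1 was not called (adjusted p = 0.0547). Nfe2l2 did not pass either (0.19, adjusted p = 0.343). Their activity is set largely at the protein level, which RNA does not show.

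Among 13 tested genes of ubiquitin supply and substrate delivery, 3 were higher without the inhibitor and 4 with it, where 7.29% and 10.1% of all genes were. Ufd1 was called higher without the inhibitor with the block alone (log2 fold change 0.30, adjusted p = 0.0333, limma). Ubqln4, a shuttle factor, rose by 0.62 and 1.07 (adjusted p = 0.00479 and 0.000794) and Vcp, the ATPase that extracts proteins from the endoplasmic reticulum membrane, by 0.53 and 0.73 (adjusted p = 0.0420 and 0.0364).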

How the data were processed

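RNA of 16 libraries of dispersed islet cells was measured by paired-end sequencing of poly(A) libraries. The deposited values are RPKM, which the authors made from reads aligned to GRCm38 (per the processing notes of the submitters). The step from counts to RPKM, the annotation and the gene lengths are not given in the sources used here. A further 3 columns that match no sample label were not used. Members and gene lists were chosen with earlier results of these data known.

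Depth was estimated from the step that 1 read makes in RPKM with GENCODE M21 exon lengths. For the tests, TMM factors taken from all genes scaled the libraries (no weights, trimming 30% of ratios and 5% of levels), and genes with more than 1 RPKM in 4 or more of the libraries compared were fitted as log2(RPKM + 1) in limma 3.58.1 (lmFit, eBayes with trend; R 4.3.3). Adding 1 understates the change of low genes. Each comparison used its 8 libraries and the interaction all 16. p-values were adjusted by the Benjamini-Hochberg method over all genes tested, and 0.05 was the threshold. Levels in the text are RPKM as deposited. Tables used Python 3.11.15, pandas 2.3.3 and numpy 2.4.6.

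Preparations pair the libraries, since the labels give the same animals in each group. The residual correlation of same-numbered libraries was 0.486 to 0.721 in the first comparison and 0.131 to 0.826 over all comparisons. The fit without the block is given first, and block values stand beside it where they change calls. p-values without the block rest on the spread of libraries within a group, with each library taken as independent. Those with the block rest on the spread left after the preparation term. Both draw on 4 preparations.

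Named in full were the constitutive and immunoproteasome catalytic genes, Psme1 and Psme2, and, per comparison, the 5 members with the highest and the 3 with the lowest log2 fold change. Other genes come from fixed lists, and others are named as members of a counted group. GC content is that of the longest coding transcript in GENCODE M21. The procedure was tested on simulated data. The alternatives changed the pseudocount (0.1), the filter, the scaling (none, or by quantiles), the libraries (all 16 fitted together, or less 1 preparation), the variance model (no trend) or added a preparation term. The GC and length correction, the scaling over filtered genes and the omission of single libraries were chosen after seeing the data. Protein sequences were not used here. Some results of the gene lists are not reported here.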

Additional observations from a re-analysis of the deposited data

Results flagged for a closer look

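In 9 of 100 groups of 4 libraries examined (25 genes in 4 groups), the highest or lowest library stood apart from the other 3 by Dixon's criterion, where chance marks about 5% of such groups. In Ad-LacZ, M2 was high for the immunoproteasome genes Psmb8 (4.26 RPKM) and Psmb10 (11.5 RPKM), and F2 was high for the core subunit Psmb2 (98.5 RPKM). In Ad-Cre, F1 was high for Psmb4 (101 RPKM) and M1 for Psmd1 (30.2 RPKM). In Ad-LacZ+JNKi, F1 was low for the lid genes Psmd3 (17.0 RPKM) and Psmd13 (20.1 RPKM). In Ad-Cre+JNKi, M2 was low for Psmb8 (3.67 RPKM) and for the ATPase Psmc5 (82.2 RPKM).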

How the results depend on the processing

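For Ad-Cre against Ad-LacZ the count of genes called higher, 9, was 17 with RPKM as deposited, 16 with TMM over filtered genes, 18 with the preparation as a block, 4 with all 16 libraries in one fit, 3 without the F2 library of Ad-LacZ, and 1 to 4 with a preparation left out. The count called lower, 1, was 2 with RPKM as deposited, with quantile normalization and with TMM over filtered genes, 3 with the block with or without the GC correction, and 0 to 1 with a preparation left out. With the inhibitor the 16 called higher became 10 without the F1 library of Ad-LacZ+JNKi, 7 without the F2 library of Ad-Cre+JNKi and 0 to 19 with a preparation left out. The 1 called lower became 6 as deposited, 3 with quantile normalization, 2 with all 16 libraries and with the GC correction (2 with its block), 3 without the M2 library of Ad-Cre+JNKi and 0 to 1 with a preparation left out. For the inhibitor in Ad-Cre, the 0 called higher became 4 with the preparation as a block and 5 with the block and the GC correction. For the inhibitor in Ad-LacZ and for the interaction the counts were 0 in every alternative. The block changed no other count of these genes by more than 1.5 times. Where no share over all genes is given above, a count does not show whether proteasome genes moved more than others. The causes were not tested. A fit with a preparation left out also has fewer libraries, and the part of this in the changed counts was not tested.

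Signs turned for values that did not pass the test. Without the inhibitor, Psmb7 became -0.0262 (quantile) and -0.0366 (GC correction), and Psme1 ran from -0.2058 to 0.023 with preparations or libraries left out. With it, Psmb7 became -0.0621 (as deposited), -0.0443 (quantile) and -0.0682 (GC correction), with -0.0121 to 0.1381 on omission, Psme1 became -0.1052 (as deposited) and -0.2368 (GC correction), with -0.0943 to 0.1418 on omission, and Psmb10 ran from -0.1224 to 0.6099 on omission. For the inhibitor in Ad-Cre, Psmb7 became -0.1336 (as deposited), -0.0634 (quantile) and -0.0789 (GC correction), with -0.0243 to 0.0958 on omission, and Psme2 -0.0974 (as deposited) and -0.0637 (GC correction), with -0.0769 to 0.2059 on omission. For the inhibitor in Ad-LacZ, Psmb10 became 0.0066 (quantile) and 0.0007 (TMM over filtered genes), with -0.1896 to 0.222 on omission, Psme1 reached -0.0016 to 0.1447 and Psmb6 -0.0986 to 0.001. In the interaction, Psmb5 became -0.0238 (as deposited) and -0.0533 (quantile), with -0.0511 to 0.3782 on omission, Psmb7 -0.097 and -0.0124, and Psme1 -0.0029 (as deposited). Values with the GC correction were equal with and without the block. Psmb8 in Ad-Cre against Ad-LacZ was called in each alternative, at 0.57 to 0.87.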
